A study of Mus musculus with 4 samples.

Results

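Ccr7-positive CD4 T cells of the mouse brain borders were examined in young and aged animals. A cell was counted when it held between 200 and 7000 genes, no more than 5% mitochondrial UMIs and UMIs of Cd4, of Ccr7 and of any CD3 chain gene (Cd3d, Cd3e, Cd3g), 1 UMI being enough for each. Cells with any UMI of Cd8a, Cd8b1, Cxcr3 or Foxp3 were left out. A UMI, or unique molecular identifier, marks 1 captured RNA molecule. This gate held 278 of the 1019 CD4 T cells and of the 4801 cells in the files: 142 from the young meninges, 96 from the young choroid plexus, 25 from the aged meninges and 15 from the aged choroid plexus.

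The cells came from female C57BL/6 mice that were 10 weeks (young) or 18 months (aged) old, with no other treatment or allele named. Sorted CD4 and CD8 T cells of each tissue were sequenced from the 5′ end of their RNA as 1 library per age and tissue, each made from 5 pooled mice. The animals within a library cannot be separated, and with 1 library per group no difference between groups had a replicate check. No p-values were therefore computed. All intervals are 95% intervals, exact Clopper-Pearson for shares and exact Poisson for levels, and they cover counting error only. The interval of a difference between shares joins the limits of both shares as a root of summed squares and is approximate. The libraries held 3737140, 2295950, 4262917 and 3957717 UMIs. Wherever 4 values follow each other, the young tissues come before the aged, and the meninges come before the choroid plexus at each age. The gated cells themselves held 471738, 294710, 69877 and 43274 UMIs, so the aged profiles rested on far fewer molecules. Their median UMIs per cell were 3219.5, 2861, 2527 and 2618. No cell barcode was shared between libraries among the gated cells.

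Naive CD4 T cells circulate between blood and lymphoid organs and wait there for their antigen. CCR7, a chemokine receptor, guides them into lymph nodes. The transcription factors LEF1, TCF1 (the product of Tcf7) and KLF2 and the chromatin organizer SATB1 are typical of this resting state. After antigen contact, T cells that become memory or effector cells take up adhesion molecules such as integrin beta 1 (Itgb1) and small proteins such as S100A6 and galectin-1 (Lgals1). A subset of memory cells, the central memory cells, keeps CCR7. The meninges wrap the brain, and the choroid plexus forms cerebrospinal fluid in the ventricles.

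To examine whether the gate held naive-like cells, 3 other markers were read: Lef1, Satb1 and Igfbp4, which encodes an insulin-like growth factor binding protein. At least 1 of the 3 was detected in 126 of 142 gated cells of the young meninges (88.7%, 82.3 to 93.4) and in 91 of 96 of the young choroid plexus (94.8%). In the aged meninges it was 10 of 25 cells (40.0%, 21.1 to 61.3), and in the aged choroid plexus 9 of 15 (60.0%). The label thus held for nearly all young gated cells, while 15 of the 25 aged meningeal cells and 6 of the 15 aged choroid plexus cells had none of these markers. The cells are therefore called by their gate. The genes lie on GRCm38 at chr11:99144196-99155077 (minus strand) for Ccr7, chr3:131110471-131224356 (plus) for Lef1, chr17:51736187-51833290 (minus) for Satb1 and chr11:99041244-99054392 (plus) for Igfbp4, and the counts were made per gene. Depth per cell was lower in the aged libraries, so each cell was also reduced at random to 1000 UMIs. After that, Lef1 was seen in 65 of 142, 45 of 95, 2 of 24 and 2 of 15 gated cells, against 105 of 142, 78 of 96, 7 of 25 and 4 of 15 before.

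Gated cells were a smaller share of CD4 T cells in both aged tissues. They made up 142 of 260 CD4 T cells of the young meninges (54.6%, 48.3 to 60.8) and 25 of 362 of the aged meninges (6.91%, 4.52 to 10.0). In the choroid plexus they were 96 of 166 young cells (57.8%, 49.9 to 65.4) and 15 of 231 aged cells (6.49%, 3.68 to 10.5). The share was lower by 47.7 percentage points in the meninges (interval of the difference -54.3 to -40.7) and by 51.3 in the choroid plexus (-59.5 to -42.5). Cells were chosen by a Ccr7 UMI, so this share describes that choice. With each cell reduced to 1000 UMIs the shares were 30.9%, 27.3%, 3.09% and 3.04%. Libraries were loaded from sorted cells, and these shares carry no information on the absolute number of cells in the tissue.

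**Figure D1:**
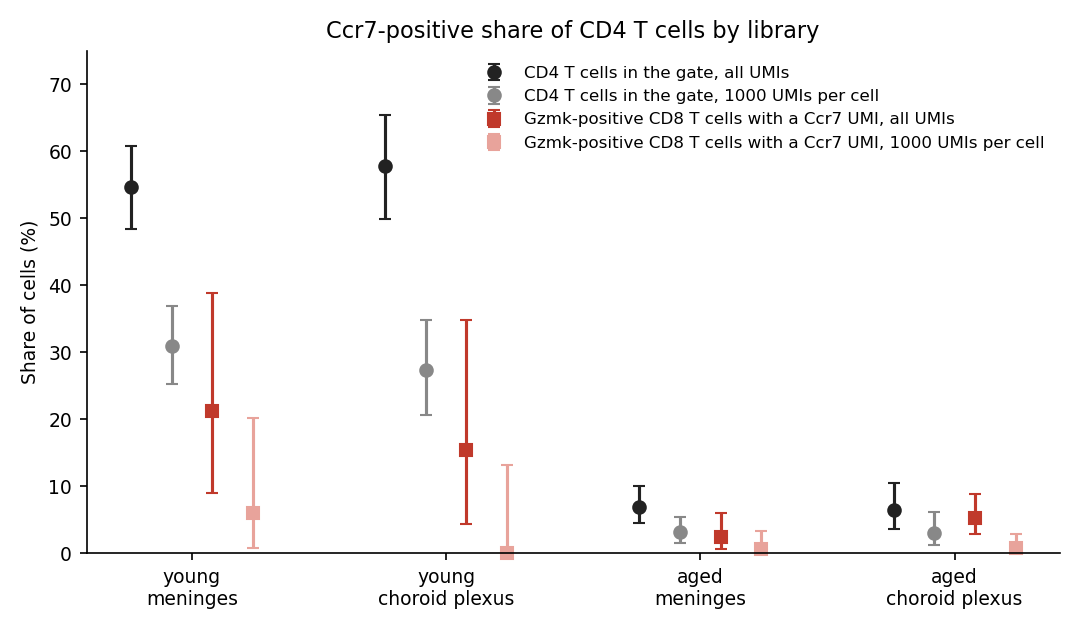
Share of cells in percent (y axis, 0 to 75) by library (x axis). Circles are CD4 T cells in the Ccr7 gate and squares Gzmk-positive CD8 T cells with a Ccr7 UMI, dark at all UMIs and pale at 1000 UMIs per cell, with exact 95% binomial intervals; the gated share at all UMIs was 54.6% and 57.8% in the young and 6.91% and 6.49% in the aged libraries.

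The gated shares were set beside the level in cells that should hold little Ccr7. Among CD8 T cells with a UMI of Gzmk, an effector granzyme, a Ccr7 UMI was found in 7 of 33, 4 of 26, 4 of 168 and 13 of 249 cells (21.2%, 15.4%, 2.38% and 5.22%), at median depths of 3733, 4124, 2797 and 3128 UMIs per cell. In each young library the gated share was well above this value. In the aged choroid plexus the interval of the gated share, 3.68 to 10.5%, included the 5.22% of the Gzmk-positive CD8 T cells. In the aged meninges the interval of the gated share, 4.52 to 10.0%, lay above the 2.38% of the CD8 T cells, whose own interval reached 5.98%. The CD8 T cells were not filtered on Cxcr3 or Foxp3. On like terms, without that filter, the shares of CD4 T cells were 57.3%, 62.0%, 9.67% and 11.7%, each above the CD8 share of its library. With each cell reduced to 1000 UMIs, the CD8 shares were 6.06%, 0 of 26 cells (interval 0 to 13.2%), 0.606% and 0.813%. The gated shares in the aged tissues were then 3.09% and 3.04%. Free RNA as a source of single Ccr7 UMIs was not tested.

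The cells just inside and just outside the gate were described as well. Ccr7 and Cxcr3 chose these cells, so their counts here are no test of the gate. Among gated cells, 102 of 142 young meningeal cells (71.8%) and 58 of 96 young choroid plexus cells (60.4%) carried 2 or more Ccr7 UMIs, against 7 of 25 (28.0%) and 7 of 15 (46.7%) aged cells. Cells just outside, which met every other term but had no Ccr7 UMI, numbered 66, 43, 155 and 125. In the young libraries Lef1 was detected in 34 of 66 and 33 of 43 of them. In the aged libraries Lef1 was detected in 23 of 155 and 20 of 125 of these cells, and S100a6, a calcium-binding protein gene of memory cells, in 115 of 155 (74.2%) and 96 of 125 (76.8%). In the young it was found in 21 of 66 (31.8%) and 11 of 43 (25.6%). The term that left out Cxcr3 removed 4 of 149 (2.68%), 5 of 103 (4.85%), 10 of 35 (28.6%) and 11 of 27 (40.7%) of the Ccr7-positive CD4 T cells. CXCR3 is a chemokine receptor of type 1 effector and memory cells.

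To see whether naive and memory genes met in the same cells, each gated cell was placed by its UMIs of Lef1, Satb1 or Igfbp4 and of S100a6, Lgals1 or Itgb1. Cells with the naive markers alone were 89 of 142 in the young meninges and 63 of 96 in the young choroid plexus, but 9 of 25 and 1 of 15 in the aged tissues. Cells with the memory genes alone were 11 of 142, 2 of 96, 15 of 25 and 5 of 15. Cells with both were 37, 28, 1 and 8. The aged meningeal cells thus fell almost entirely into 2 kinds, while in the aged choroid plexus most cells with a naive marker also had a memory gene. At 25 and 15 cells these splits were coarse.

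**Figure D2:**
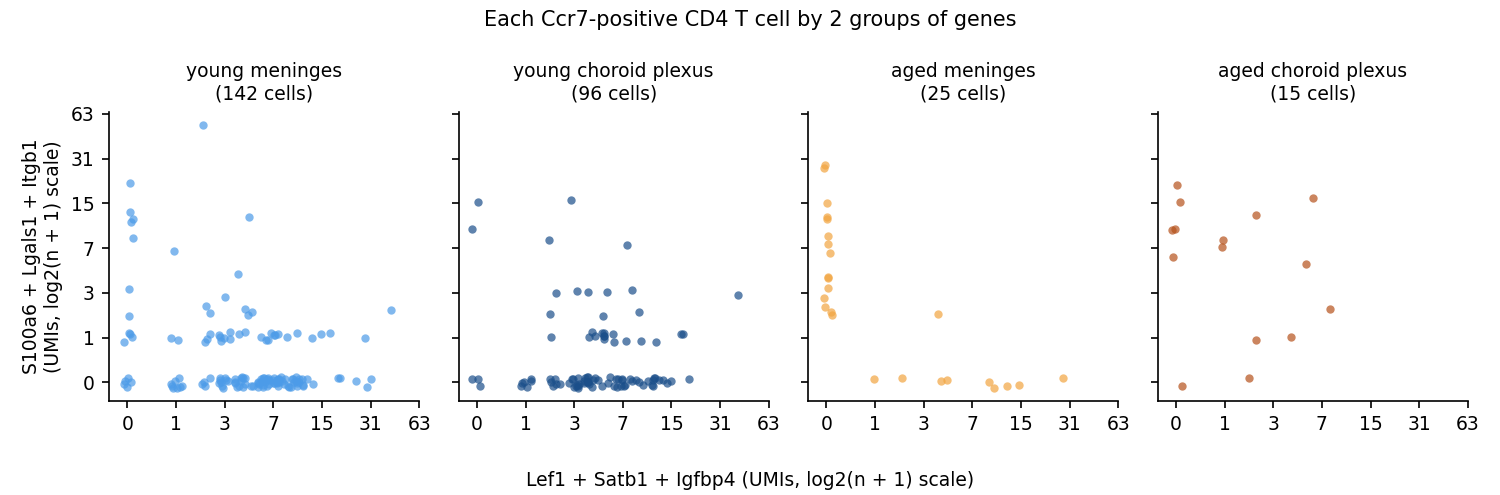
Each point is a Ccr7-positive CD4 T cell, with its UMIs of Lef1, Satb1 and Igfbp4 summed (x axis) and of S100a6, Lgals1 and Itgb1 summed (y axis), both on a log2(n + 1) scale, in 1 panel per library. Points are jittered slightly. In the aged meninges the points lie along the axes save for 1 cell with both groups, while 8 of 15 aged choroid plexus cells have both.

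In the aged meninges the split was plain for S100a6. The 10 gated cells there with a naive marker held no UMI of S100a6 and none of Lgals1, and 2 UMIs of Itgb1 in 1 cell. The 15 cells without a naive marker held 71 UMIs of S100a6 in 12 cells (1913 CPM, 1494 to 2412, where CPM are UMIs scaled to the total of the summed cells), 33 of Lgals1 and 31 of Itgb1. Klf2, a regulator of T cell quiescence and of exit from tissue, stood at 946 CPM with and 943 CPM without a naive marker, but was detected in 9 of 10 and in 7 of 15 cells, and 18 of the 35 UMIs without a marker came from 1 cell. S1pr1, the receptor for the exit signal sphingosine 1-phosphate, stood at 366 and 377 CPM. In the aged choroid plexus the split was less sharp. S100a6 was found in 4 of the 9 cells with a naive marker (20 UMIs) and in 5 of the 6 without (28 UMIs). The young meninges had 48 UMIs of S100a6 in 8 cells, 28 of them in 1 cell, and the young choroid plexus 10 UMIs in 3 cells.

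**Figure D3:**
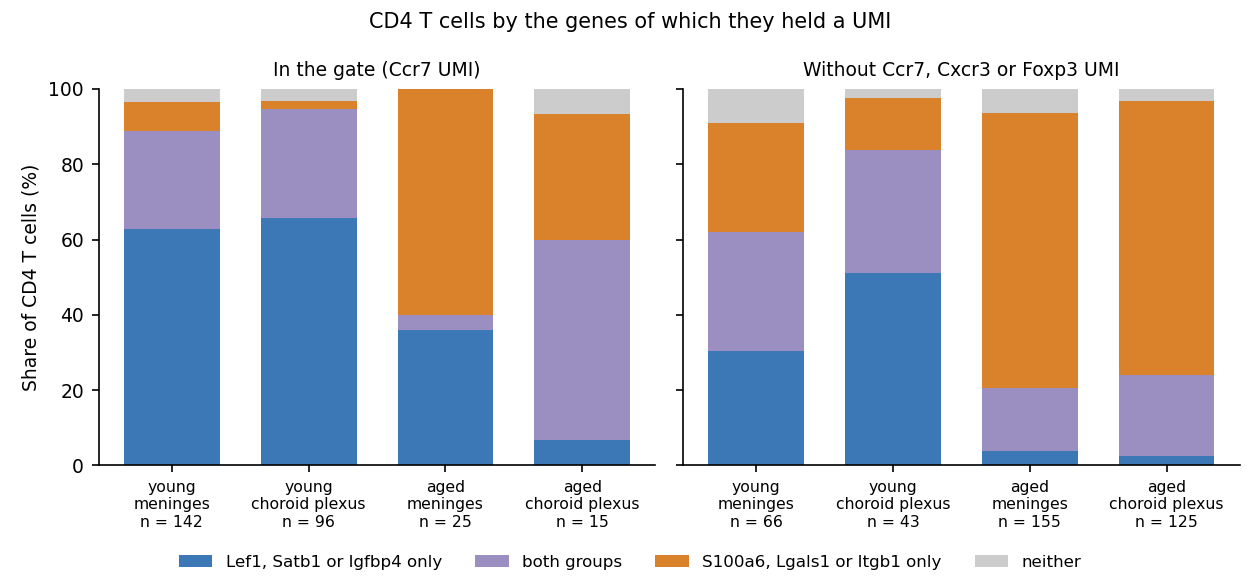
Share of CD4 T cells in percent (y axis) by library (x axis, with n) that held UMIs of Lef1, Satb1 or Igfbp4 only, of S100a6, Lgals1 or Itgb1 only, of both groups or of neither, for gated cells (left) and for cells without a Ccr7, Cxcr3 or Foxp3 UMI (right). Memory genes alone marked 15 of 25 aged meningeal gated cells, and 72.9% and 72.8% of the aged cells on the right.

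To compare levels, UMIs of the gated cells of each library were summed and scaled to CPM. A gene was compared when the higher of the 2 levels corresponded to at least 20 UMIs in the smaller profile, and called when log2 of the ratio of (CPM + 10) was 1 or more in either direction. This is a rule of size, not a test. In the meninges 17 of 424 genes were called higher in aged gated cells (4.01%) and 7 were called lower (1.65%). In the choroid plexus 14 of 265 were higher (5.28%) and 3 lower (1.13%). With both tissues summed 22 of 690 were higher (3.19%) and 14 lower (2.03%). The 7 genes higher in both tissues and the 1 lower in both came from 261 genes compared in both, and none was called in opposite directions. These call shares were of the size seen between tissues of 1 age: with every profile reduced to 43274 UMIs, 18 of 282 genes (6.38%) were called between the aged tissues and 22 of 269 (8.18%) between the young, against 26 of 282 (9.22%) and 21 of 278 (7.55%) between ages. The direction of the calls depended on scaling. With TMM factors from edgeR, which align the bulk of genes, 9 meningeal genes were higher and 18 lower, and for the choroid plexus 10 and 19, and the median log2 ratio of all compared genes was -0.17 and -0.36 in place of 0.04 and 0.05.

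Several naive and quiescence genes were lower in the aged gated cells. Of the 24 genes on this list 18 were compared in the summed profiles, among them Ccr7, which chose the cells. Of the other 17, none was called higher and 6 lower, namely Lef1, Satb1, Foxp1, Dapl1, Txk and Actn1, with a median log2 ratio of -0.51 against 0.05 for all 690 genes, of which 2.03% were called lower. Of these 6, Lef1 alone (203 CPM) reached the limit of the summed profiles, 177 CPM, in aged cells. The rest were compared only for their young level and could not be called higher, so this count and median were partly set by the limit. Within the meninges 1 of 13 was called higher and 3 lower, and within the choroid plexus 0 and 2 of 8. Under TMM factors the same 6 genes were called lower in the summed profiles. With at least 2 Ccr7 UMIs per cell, however, 0 of 9, Ccr7 included, were called (median -0.16), beside 0.80% of all genes called lower. At 1000 UMIs per cell 1 of 8 was (Lef1), beside 1.62%. Without the aged cell of each tissue with most UMIs of the gene, 4 of 16 were. However, 4.53% of all genes were then lower, so this count cannot be read against the 6 above. Ccr7 chose the cells, and its own levels are a description: 1019.6, 709, 658 and 555 CPM.

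Lef1, which with Tcf7 maintains the naive program, stood at 615 CPM (546 to 689.7) in the young meninges, 604 (519 to 699.5) in the young choroid plexus, 215 (120.1 to 354) in the aged meninges and 185 (79.8 to 364) in the aged choroid plexus. Both aged values lay below both young values with no overlap of their intervals. The log2 ratios were -1.48 (meninges) and -1.66 (choroid plexus), and Lef1 was the gene called lower in each tissue. Satb1 stood at 341, 336, 42.9 and 162 CPM, on 3 UMIs in the aged meninges and 7 in the aged choroid plexus. Its log2 ratio was -2.73 in the meninges, where it was called, and -1.01 in the choroid plexus, where it was below the limit of 20 UMIs. Tcf7 stood at 621, 472, 301 and 369.7 CPM, and was called lower in the meninges alone (log2 ratios -1.02 and -0.34). That difference between tissues was not tested.

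The level of Igfbp4 did not follow them in the meninges. Its level was 861, 987, 1045 and 369.7 CPM, so it was as high in the aged as in the young meninges (log2 0.28) and lower in the aged choroid plexus (-1.39). In the aged meninges 28 of its 73 UMIs came from 1 of 8 cells. Igfbp4 was detected in 89 of 142, 70 of 96, 8 of 25 and 4 of 15 gated cells, a smaller part of the aged cells in both tissues. Klf2 stood at 1516, 1021, 945 and 878 CPM (log2 -0.68 and -0.22) and S1pr1 at 430.3, 278, 372 and 254 CPM (-0.20 and -0.13), and neither was called. For Klf2, 18 of the 66 aged meningeal UMIs came from 1 cell, and without it Klf2 was called lower in the meninges. Bcl2, a survival factor, stood at 180.2, 238, 386 and 416 CPM. It was called higher in the meninges (1.06) and not in the choroid plexus (0.78), and the meningeal call was lost under TMM factors and without the aged cell with its most UMIs.

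Among the genes called lowest, Ly6c1 stood out by its UMIs. This surface antigen gene on chr15:75044018-75048830 (minus strand) had 128 UMIs in the young meninges, 103 in the young choroid plexus, 4 in the aged meninges and 0 in the aged choroid plexus. In CPM these were 271 (226 to 323), 349 (285 to 424), 57.2 (15.6 to 147) and 0. The exact upper limit of its level in the aged choroid plexus was 85.2 CPM, and that of its log2 ratio there was -2.01. The 12 called genes with the lowest mean log2 ratio over both tissues, receptor, mitochondrial and ribosomal protein genes left out, were Ly6c1, Satb1, Sesn1, Rasgrp2, Pde4b, Dapl1, Txk, Lef1, Actn1, Foxp1, Taldo1 and the long non-coding RNA gene Gm26917. Sesn1 encodes a stress-responsive sestrin, Rasgrp2 an activator of the small GTPase Rap1, Pde4b a cyclic AMP phosphodiesterase, Txk a kinase of the Tec family and Foxp1 a transcription factor of T cell quiescence. Sesn1 stood at 148, 241, 42.9 and 46.2 CPM, on 70, 71, 3 and 2 UMIs. Pde4b stood at 225, 329, 71.6 and 92.4 CPM, on 106, 97, 5 and 4 UMIs. Within single tissues 3 of the 12 could be compared for the meninges and 1 for the choroid plexus. All of these were called, which the choice on the same tissues largely fixed.

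Because TCF1 and LEF1, FOXO1 and AP-1 are known regulators of naive and activated T cells, the 250 bases before the start of each of these genes were searched on both strands in RefSeq promoters of GRCm38.p6. The words CTTTGAA or CTTTGAT (TCF/LEF) occurred in 7.48% of all 32851 promoters, GTAAACA (FOXO) in 3.17% and TGACTCA or TGAGTCA (AP-1) in 4.46%. Counted per gene with any of its starts, as for the genes here, the shares were 8.63%, 3.54% and 5.16% of 27025 genes. Of the 12 lowest genes 11 had a promoter in the table: a TCF/LEF word was found for Foxp1, Taldo1 and Txk, the FOXO word for Dapl1 and no AP-1 word. Of the 12 highest genes 8 had one, and S100a11 alone held a word, that of AP-1. The 3 promoters below show an example of each word on the gene's own strand, with the word in capitals, S100a11 holding it at 2 places. In Txk the capitals are the reverse complement of CTTTGAA, and they begin 193 bases before the start. Txk lies at chr5:72752778-72753027 (minus strand), Dapl1 at chr2:59484403-59484652 (plus) and S100a11 at chr3:93520246-93520495 (plus). A match of letters is no evidence of binding.
Txk: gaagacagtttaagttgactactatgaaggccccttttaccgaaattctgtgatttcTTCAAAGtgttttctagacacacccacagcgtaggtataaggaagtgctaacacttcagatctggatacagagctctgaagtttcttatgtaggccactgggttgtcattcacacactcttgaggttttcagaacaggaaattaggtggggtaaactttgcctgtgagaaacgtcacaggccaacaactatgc
Dapl1: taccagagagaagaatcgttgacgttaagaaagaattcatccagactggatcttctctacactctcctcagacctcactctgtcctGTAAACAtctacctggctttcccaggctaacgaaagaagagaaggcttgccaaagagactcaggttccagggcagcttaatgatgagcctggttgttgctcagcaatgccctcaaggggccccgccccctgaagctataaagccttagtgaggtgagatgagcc
S100a11: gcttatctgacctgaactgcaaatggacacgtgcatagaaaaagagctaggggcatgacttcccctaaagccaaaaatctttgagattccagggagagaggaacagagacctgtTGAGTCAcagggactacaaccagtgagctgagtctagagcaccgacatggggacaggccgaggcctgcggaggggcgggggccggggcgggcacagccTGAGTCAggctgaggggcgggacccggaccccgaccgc

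Memory and effector genes were called higher in the aged gated cells of both tissues. Of the 25 genes on this list 9 were compared in the meninges, with 6 called higher and none lower (median log2 1.23 against 0.04 for all 424 genes, of which 4.01% were called higher). In the choroid plexus 7 of 9 were higher and none lower (2.54 against 0.05 for all 265, of which 5.28% were higher). In the summed profiles, where 3.19% of all genes were higher, 8 of 12 were higher, namely S100a6, S100a11, Lgals1, Itgb1, Ahnak, Ccl5, Nkg7 and Ifngr1. The 6 genes called in the meninges lay below the limit there (286 CPM) in young cells, and were compared only for their aged level. The same held in the choroid plexus (462 CPM) for every called gene but Crip1, and in the summed profiles (177 CPM) for all but Lgals1. Such genes could not be called lower, so these counts and medians were partly set by the limit. In the 7 and 7 aged cells with at least 2 Ccr7 UMIs few genes could be compared: 0 of 1 was called higher in the meninges, 1 of 2 in the choroid plexus and 2 of 5 in the summed profiles (S100a6 and Ccl5), beside 0.68%, 1.36% and 2.40% of all compared genes. The median log2 ratio of the list in the summed profiles was then 0.68 in place of 1.78. The summed level of the list was 2881, 2463, 7928 and 10075 CPM. In the CD4 T cells without Ccr7 it was 11138, 9093, 16774 and 14446 CPM, so the aged gated cells lay above the young gated cells and below the aged cells without Ccr7 of their tissue. The cells without Ccr7 were not filtered on Cxcr3 or Foxp3, so they differ from the gated cells in more than Ccr7.

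S100a6 (chr3:90612882-90624181, plus strand) stood at 102 CPM (75 to 135) in the young meninges, 33.9 (16.3 to 62.4) in the young choroid plexus, 1016 (794 to 1282) in the aged meninges and 1109 (818 to 1471) in the aged choroid plexus. The aged values were several times the young ones in both tissues (log2 3.20 and 4.67). Itgb1 (chr8:128685654-128733200, plus strand) stood at 86.9, 122, 472 and 763 CPM (log2 2.32 and 2.55). Lgals1 (chr15:78926725-78930465, plus strand), which encodes a lectin that limits T cell responses, stood at 212, 169.7, 472 and 809 CPM (log2 1.12 and 2.19). S100a11 stood at 142, 95.0, 472 and 601 CPM (1.67 and 2.54). For these 4 genes the aged and young intervals did not overlap within either tissue. When the aged cell with the most UMIs was left out in each tissue, S100a6, Itgb1, S100a11 and Lgals1 had summed log2 ratios of 3.27, 2.11, 1.72 and 1.25. Within tissues Lgals1 then lost its call in the meninges, as it did under TMM factors. In the choroid plexus the cell left out held 8 of the 26 aged UMIs of S100a11. Too few were then left for S100a11 to be compared there, so its call was lost to the UMI limit.

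Ccl5 and Nkg7 of this list, and Fos outside it, rested largely on few cells. Ccl5, a chemokine of effector T cells, had 27, 17, 83 and 60 UMIs (57.2, 57.7, 1188 and 1387 CPM), the highest summed log2 ratio of the named genes (4.24). All 60 UMIs of the aged choroid plexus came from 1 cell, and 70 of the 83 of the aged meninges from 3 cells. Without the top aged cell of each tissue its ratio was 2.79. Nkg7, a cytotoxic granule gene, stood at 10.6, 37.3, 258 and 116 CPM on 5, 11, 18 and 5 UMIs. The top aged cell of each tissue held 9 of the 18 and 4 of the 5. Without these cells too few UMIs were left for Nkg7 to be compared, so its call was lost to the UMI limit. Ahnak, a large scaffold protein gene, stood at 33.9, 33.9, 215 and 578 CPM on 16, 10, 15 and 25 UMIs. It was spread over 10 of 25 and 6 of 15 aged cells, and stayed called in the summed profiles without its top aged cells. Fos, an immediate-early gene, had 58, 5, 35 and 2 UMIs, with 21 of the 35 in 1 cell. Without that cell and the top aged choroid plexus cell, its summed log2 ratio went from 1.87 to 0.71. Cd44, the classical marker of antigen experience, had 8, 4, 5 and 2 UMIs and was too sparse to be compared.

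AW112010, a transcript of activated lymphocytes, stood at 161, 187, 930.2 and 693 CPM (log2 2.46 and 1.84). It was spread over 21 of 25 aged meningeal cells and 8 of 15 aged choroid plexus cells. Icos, a costimulatory receptor, stood at 48.8, 57.7, 157 and 208 CPM and was called for the summed profiles alone (1.59). Prr13 and Ifngr1, a chain of the interferon gamma receptor, complete the 12 genes with the highest mean log2 ratio over both tissues, with summed log2 ratios of 2.07 and 1.45. Of these 12 genes 8 could be compared within the meninges and 7 within the choroid plexus. All of these were called there, which the choice on the same tissues largely fixed.

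**Figure D4:**
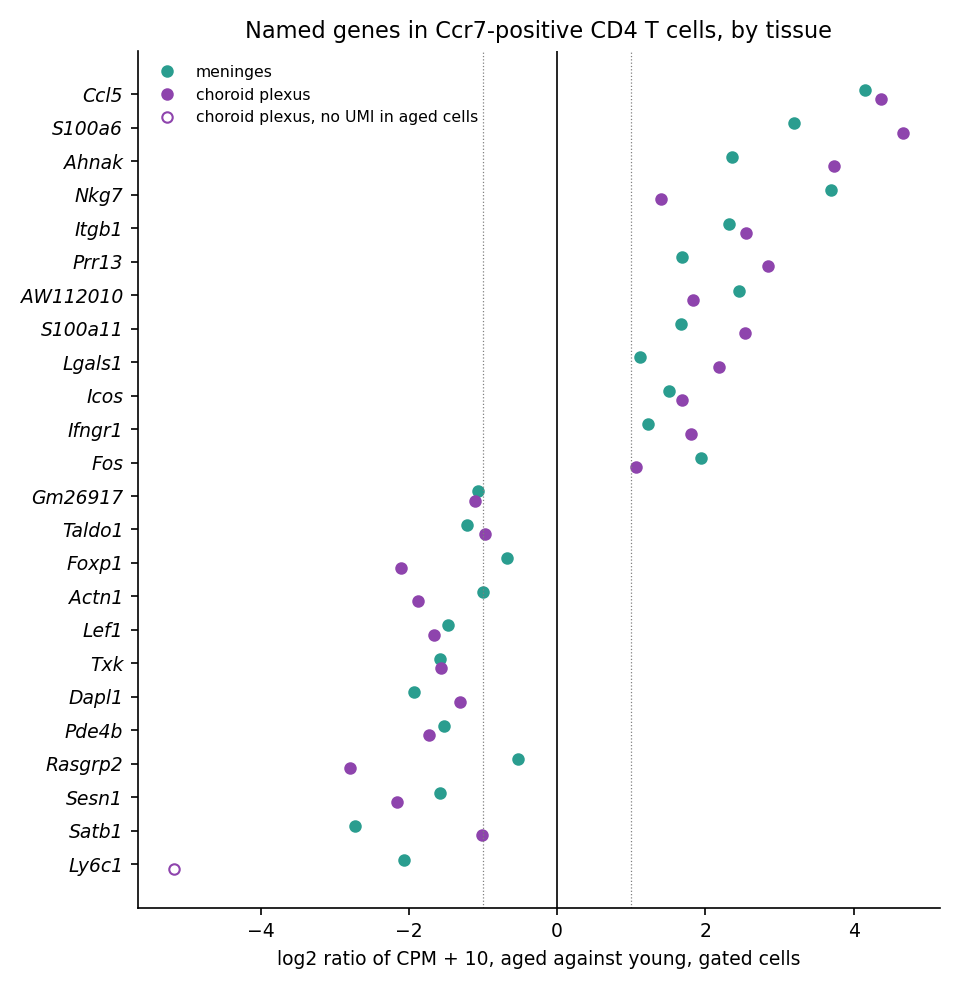
Log2 ratio of aged to young gated cells (x axis, from CPM + 10) for the 12 highest and 12 lowest genes (y axis) in the meninges and the choroid plexus. Genes were chosen to have 1 direction in both tissues, so the shared direction is no finding. The open symbol is Ly6c1 in the choroid plexus, where aged cells had no UMI.

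In the same aged libraries, CD4 T cells without a Ccr7 UMI (111, 63, 327 and 204 cells) showed smaller ratios for the genes that were higher. Unlike the gate, this set kept cells with a UMI of Cxcr3 or Foxp3. Without those it would hold 66, 43, 155 and 125 cells, for which these ratios were not computed. Over the 12 highest genes the median summed log2 ratio was 2.15 in gated cells and 0.55 in these cells, where 1 gene was called higher (background 96 of 4316 genes, 2.22%). Over the 12 lowest it was -1.56 and -1.35, with 7 called lower (background 49 genes, 1.14%). The genes were picked in the gated cells, and this comparison was not tested. Itgb1 stood at 590.4, 628, 559.8 and 599 CPM in the cells without Ccr7, with no called change, and S100a6 at 702, 1003, 2044 and 1906. Ccr7-positive CD8 T cells chosen by the matching gate (150, 72, 16 and 28 cells) had 17 of 1147 genes called higher with age (1.48%) and 20 lower (1.74%). Over the 12 highest genes of the CD4 gate their median was 1.17, with 7 called higher, and over the 12 lowest -0.71, with 3 called lower.

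**Figure D5:**
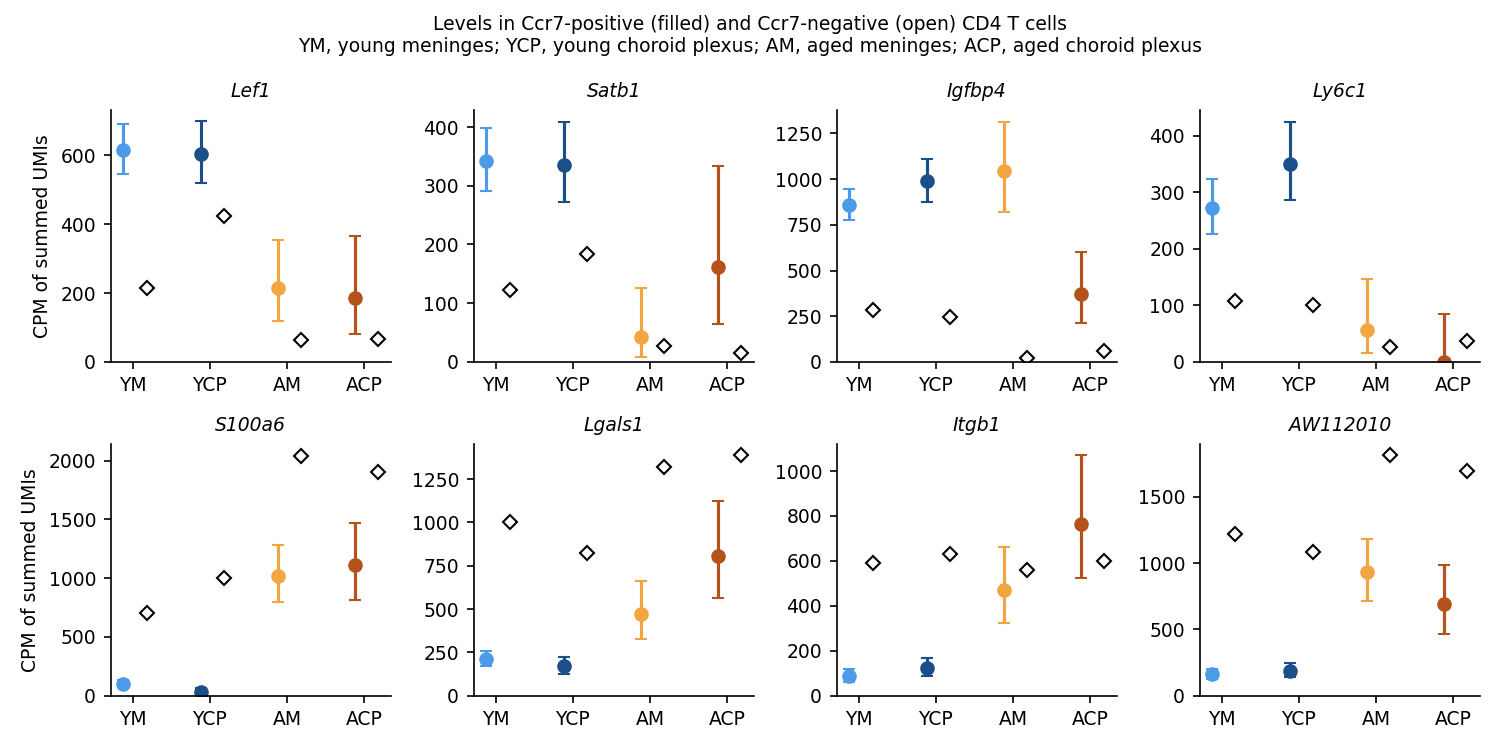
Level in CPM of the summed UMIs (y axis, linear, its own scale in each panel) of 8 genes by library (x axis: YM, young meninges; YCP, young choroid plexus; AM, aged meninges; ACP, aged choroid plexus). Filled circles are Ccr7-positive CD4 T cells with exact 95% Poisson intervals. Open diamonds are CD4 T cells without Ccr7, not filtered on Cxcr3 or Foxp3. S100a6 in gated cells was 102 and 33.9 CPM in the young and 1016 and 1109 CPM in the aged libraries.

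To see how much of this lay in the aged cells without naive markers, the contrast was repeated with gated cells that held a UMI of Lef1, Satb1 or Igfbp4 (126, 91, 10 and 9 cells), a choice made after the values were seen. With both tissues summed, 8 of 345 genes were called higher (2.32%) and 3 lower (0.870%). Of the memory list 6 genes could be compared and 3 were higher, namely S100a6, Lgals1 and Ccl5. All aged UMIs of S100a6 (20) and of Lgals1 (23) in these cells came from the choroid plexus. All 35 of Ccl5 came from 2 meningeal cells, 34 of them from 1. The ratio of S100a6 was 2.33 and that of S100a11 0.28. Of the naive list 13 were compared, with Bcl2 higher and Satb1 lower. The levels of Lef1, Satb1 and Igfbp4 in these cells were partly set by the choice and are a description. Ly6c1 had a ratio of -2.05 but, like S100a11, was below the limit of 20 UMIs in these cells and was not compared. A gate on a Lef1 UMI in place of Ccr7 held 139, 111, 30 and 24 cells, of which 105, 78, 7 and 4 were also in the Ccr7 gate. In it 16 of 19 memory genes were called higher and 11 of 22 naive genes lower, beside 97 higher and 43 lower of all 1213 genes.

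For lists of other functions the counts were too small to be read against the 36 of 690 genes (5.22%) called in either direction in the summed profiles. Of T cell receptor signalling genes 10 were compared in the summed profiles and none was called. Cd3g, a chain of the receptor complex, stood at 1018, 939.9, 1088 and 901 CPM and Cd28, its costimulatory partner, at 399, 275, 444 and 300.4 CPM. None of 7 genes of major histocompatibility class I presentation, of 4 trafficking receptors or of 6 heat shock genes was called. Of the interferon response genes Ly6a was called higher in each tissue, at 320.1, 282, 773 and 670.1 CPM (log2 1.25 and 1.22), while Ifi27l2a stood at 1488, 1150.3, 1073 and 1017 CPM. Of 5 help and activation genes Icos alone was called.

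Several immediate-early genes differed between the tissues. These genes answer within minutes to receptor signals and to handling of cells. Junb, a subunit of AP-1, stood at 1645 CPM in the young meninges, 105 in the young choroid plexus, 1975 in the aged meninges and 347 in the aged choroid plexus. Its level was lower in the choroid plexus at both ages. The list summed to 4973, 1201, 5953 and 2403 CPM. With profiles reduced to 43274 UMIs, 3 of 3 compared genes were lower in the young choroid plexus than in the young meninges (Junb, Btg2 and Nfkbia), and 4 of 5 in the aged (Fos, Junb, Jund and Ier2). Btg2 and Nfkbia ran the other way in the aged tissues, at 229 and 501 CPM in the meninges and 416 and 739 CPM in the choroid plexus. Of all compared genes 4.83% were lower in the young and 3.9% in the aged choroid plexus. Tissue, cell preparation and library cannot be told apart here. The reduction itself added noise: Satb1 was called between the young tissues at 231 and 485 CPM after it, and stood at 341 and 336 CPM before.

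Of the markers of other cells, Ighm alone was common among the gated cells. This B cell gene, the mu heavy chain, gave 115, 66, 11 and 4 UMIs in 72 of 142, 40 of 96, 8 of 25 and 4 of 15 cells. Cd79b, Ms4a1 and Ebf1 were at 0 in every library, and Cd79a gave UMIs in the young choroid plexus alone. The summed level of the B cell list was 244, 231, 157 and 92.4 CPM in gated cells. Of 8 macrophage genes there were 2, 16, 1 and 0 UMIs, with Lyz2 the most abundant in the young choroid plexus at 6. Neutrophil, fibroblast and choroid plexus epithelium genes were at 0 in all 4 libraries, and hemoglobin genes gave 14, 0, 5 and 0 UMIs. Regulatory T cell genes other than Foxp3 were found in 9 of 142, 7 of 96, 4 of 25 and 1 of 15 gated cells. Without doublets and cells with a UMI of Cd79a, Cd79b or Ms4a1, which removed 3, 3, 0 and 0 gated cells, the gate held 139 of 252, 93 of 156, 25 of 357 and 15 of 226 CD4 T cells, and the ratios of all 26 named genes stayed within counting error. The part of Ighm in the differences with age was not tested.

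Gated cells also shared features other than the genes of the gate. Ribosomal protein genes took 38.0%, 39.5%, 37.4% and 38.9% of their UMIs, against 28.9%, 32.5%, 27.8% and 29.9% in CD4 T cells without Ccr7, and this share varied little with age. Here and for the Trbv genes below, the cells without Ccr7 were not filtered on Cxcr3 or Foxp3. Mitochondrial UMIs, which the gate held to at most 5% per cell, were 2.56%, 3.17%, 2.94% and 2.87%. A T cell receptor beta variable gene (Trbv) was detected in 139, 90, 22 and 13 gated cells. The most frequent was Trbv19 in the young meninges with 17 of 139 cells (12.2%), Trbv15 in the young choroid plexus with 8 of 90 (8.89%), and Trbv2 and Trbv3 with 3 cells each in the aged tissues. The effective number of Trbv genes, the inverse of the chance that a pair of cells shares a gene, was 14.6 and 18.1 in the young tissues. The aged cells held 13 and 7 Trbv genes with 11 and 7 same-gene pairs of cells, too few for such a number. In CD4 T cells without Ccr7 the effective number was 11.5, 12.6, 13.7 and 12.6, with Trbv13-2 first at 15.1 to 17.9% in every library. No gated library was thus dominated by a single Trbv gene, within what 22 and 13 aged cells can show.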

How the data were processed

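Sorted T cells of young and aged meninges and choroid plexus were profiled by 10x Genomics 5′ single-cell RNA sequencing. The authors deposited raw UMI counts per gene and cell for 31053 genes, 1 table per library. Per the file headers these came from Cell Ranger 3.1.0, while the submitters' processing notes name Cell Ranger 5.1.0, STAR and mm10. How reads on paralogs were shared between genes is not given in the sources used here. No values were normalized before deposit.

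Cells were grouped by the library labels and filtered as stated. Counts were summed per library over the gated cells and scaled to CPM, in which each profile has the same total. A pseudocount of 10 CPM was added before the log2 ratio, whose intervals are exact and conditional on the summed UMIs, without a pseudocount. Genes needed 20 UMIs to be compared and a log2 ratio of 1 to be called. Cells are not replicates, so no count model was fitted. Genes called in the summed profiles with the same direction in each tissue were ranked by the mean of their 2 tissue ratios, and the 12 highest and 12 lowest were named, leaving out receptor, immunoglobulin, mitochondrial and ribosomal protein genes, together with the markers of the gate and the genes of the lists. Doublets were kept in the main analysis. Scrublet, in scanpy 1.11.5, marked 16, 22, 0 and 5 cells, and their removal was an alternative. Other alternatives were thinning to 1000 UMIs, stricter or other gates, other pseudocounts and limits, and TMM factors (edgeR 4.0.16). The cell gate, gene lists and comparisons were chosen with earlier results of these data known. Gene positions came from GENCODE on GRCm38. Python 3.11.15 and R 4.3.3 were used.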

Additional observations from a re-analysis of the deposited data

Results flagged for a closer look

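Among the named genes, 3 were called in 1 tissue while their log2 ratio of aged to young gated cells had the opposite sign in the other tissue. Genes outside the rule for naming were not considered. Each tissue had 1 library per age, so the difference between tissues was not tested for any of them. Btg2, an antiproliferative gene that is also an immediate-early gene, had 245, 66, 16 and 18 UMIs, with ratios of -1.15 (meninges) and 0.86 (choroid plexus), a difference of -2.01. Igfbp4 had ratios of 0.28 and -1.39, a difference of 1.67, and 28 of its 73 UMIs in the aged meninges came from 1 cell. Nfkbia, which encodes an inhibitor of NF-kappa-B, had 318, 60, 35 and 32 UMIs, with ratios of -0.42 and 1.81, a difference of -2.23, and 18 of the 32 UMIs of the aged choroid plexus came from 1 cell.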

How the results depend on the processing

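No paired analysis was possible because each group was 1 library and nothing in the labels links the animals of one library to those of another. The aged share was below the young share under every alternative tried. The difference in percentage points, meninges then choroid plexus, was -27.8 and -24.2 at 1000 UMIs per cell, -30.0 and -28.4 as the mean over all draws of 1000 UMIs, and -37.3 and -31.9 for at least 2 Ccr7 UMIs. Counts of called genes moved far more. In place of 17 higher and 7 lower (meninges), 14 and 3 (choroid plexus) and 22 and 14 (summed), the counts in that order were 6 and 3, 2 and 0, and 14 and 4 at 1000 UMIs per cell, 1 and 2, 2 and 2, and 6 and 2 for at least 2 Ccr7 UMIs, and 48 and 19, 55 and 28, and 97 and 43 for the Lef1 gate. They were 63 and 39, 34 and 28, and 77 and 44 at a limit of 10 UMIs, and 1054 and 1192, 1258 and 1052, and 521 and 994 with no limit. TMM factors gave 9 and 18 meningeal genes, 19 lower in the choroid plexus and 25 lower summed. A pseudocount of 50 CPM gave 10 higher in the meninges and 8 lower summed, and the mean of the CPM of each cell gave 34 higher summed. For each gene, the aged cell with most UMIs of it was also left out, in the summed profiles 1 cell of each tissue. This lowers aged levels by construction, and gave 7 and 13 meningeal genes, 6 higher in the choroid plexus, and 8 and 27 summed. Cells with a UMI of Lef1, Satb1 or Igfbp4 gave 2 and 4, 7 higher in the choroid plexus, and 8 and 3. Fewer cells and UMIs also mean fewer genes compared (164 in place of 424 in the meninges at 1000 UMIs per cell). The last 2 alternatives and the mean over draws were chosen after seeing the data. For 26 named genes 13 alternatives were compared, of which the 2 other UMI limits cannot move a ratio. Beyond counting error moved 11 with at least 2 Ccr7 UMIs, 11 in cells with a UMI of Lef1, Satb1 or Igfbp4, 9 under the Lef1 gate, 6 without the top aged cell, 5 at a pseudocount of 50 CPM, and 2 each at 1000 UMIs per cell and with the mean of the CPM of each cell. No ratio reversed among the genes called in the summed profiles. Igfbp4, not called there (log2 -0.21), turned positive in cells with a UMI of Lef1, Satb1 or Igfbp4. Those aged cells held 73 and 16 UMIs of Igfbp4 among 32753 and 27092, and the young cells 406 and 291 among 414726 and 283941. With 69877 and 43274 UMIs in the aged profiles, genes below about 286 and 462 CPM could not be compared within a tissue.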
